A study of Homo sapiens with 19 samples.

Results

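The levels of 9 transcripts of receptor tyrosine kinases were followed through RNA-seq of MDA-MB-231 cells after depletion of STAT3 or HMGN5: AXL, EGFR, EPHA2, PDGFRB, ERBB2, IGF1R and INSR with 1 transcript each, and MET with 2. They are among the 175775 transcripts in each deposited table and stand for 8 genes. The members were chosen by gene and Ensembl transcript ID with no threshold on a measured value, but with their read counts over the 6 groups and earlier results of these libraries known, so the adjusted p-values below place each receptor within the fit of all transcripts and are not independent evidence. The files do not pair IDs with gene names, and the names are those given with the list. MDA-MB-231 is an established line from a human triple-negative breast tumour. All cells received 30 nM siRNA with a lipid reagent, the controls included. The siRNA experiment held control siRNA (NC, 4 libraries), HMGN5 siRNA (siHMGN5, 2 libraries) and STAT3 siRNA (siSTAT3, 2 libraries). The lentiviral experiment held 3 libraries each of control siRNA with a control vector (NC_Vec), STAT3 siRNA with the control vector (siSTAT3_Vec) and STAT3 siRNA with HMGN5 delivered by lentivirus (siSTAT3_HMGN5). The labels name neither the siRNA sequences nor separate cultures for replicates, so p-values measure the spread between these libraries, which may be technical.

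Receptor tyrosine kinases sit in the plasma membrane, bind a growth factor or a cell-bound ligand outside and phosphorylate tyrosines inside, which recruits adaptors that switch on RAS to ERK, PI3K to AKT and STAT signalling. AXL is the receptor of GAS6 in the TAM family, and MET is the receptor of hepatocyte growth factor. EGFR and ERBB2 belong to the ErbB family, EPHA2 binds ephrin A ligands on neighbouring cells, PDGFRB binds PDGF, and IGF1R and INSR bind insulin-like growth factors and insulin. AXL, MET, EGFR and EPHA2 are known for their part in growth and invasion of mesenchymal breast cancer cells, whereas ERBB2 is not amplified in triple-negative tumours. STAT3 is a transcription factor that several of these receptors can activate, and HMGN5 is a protein that binds nucleosomes.

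Depth ran from 19114033 to 19509422 estimated reads per library in the siRNA experiment and from 22500086 to 23047081 in the lentiviral one, so that 3 reads corresponded to 0.154 to 0.157 CPM (counts scaled to a common library size by TMM) and to 0.13 to 0.133 CPM. The NC libraries fell into 2 pairs in some receptors. EPHA2 was 1.65 times as high in NC replicates 3 and 4 as in replicates 1 and 2, and MET was 1.42 times as high in replicates 1 and 2 as in replicates 3 and 4, while AXL and EGFR differed between the pairs by a factor of 1.07 and 1.04. Comparisons of the 5 abundant receptors with NC are therefore also given against each pair. A fit with 1 pair leaves out the spread between the pairs. Its SE and adjusted p measure only the spread within the groups kept. A pass there does not replace the result with all NC libraries. Knockdown of STAT3 and HMGN5, the ligands, adaptors and inhibitors of the receptors, and markers of the cell line were not analysed here, because no table at hand pairs transcripts with genes.

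Set side by side per length, EPHA2, AXL, EGFR and MET were the 4 highest receptor transcripts in each group. They are called abundant below together with PDGFRB, which had at least 152 reads in each library. PDGFRB was far scarcer than the other 4, averaging 8.19, 8.74 and 8.84 CPM in siHMGN5, siSTAT3 and siSTAT3_HMGN5. The name marks only the 5 receptors with reads in every library. In NC_Vec the deposited TPM (abundance scaled by effective length and library) was 108 ± 3.72 for EPHA2, 101 ± 2.58 for AXL, 33.8 ± 1.67 for EGFR, 14.4 ± 0.645 for MET and 5.58 ± 0.104 for PDGFRB (SD, n = 3). The lowest EPHA2 library (104 TPM) and the highest AXL library (103.6 TPM) nearly met, and the other neighbours in that order lay well apart. In NC the leading receptor depended on the pair: AXL was at 71.9 and 72.9 TPM in replicates 1 and 2 against 69 and 66 TPM for EPHA2, and at 77.8 and 77 TPM in replicates 3 and 4 against 109 and 110 TPM for EPHA2. The order of AXL and EGFR turned in siHMGN5 alone among the 6 groups, where AXL stood at 18.7 and 20.8 TPM and EGFR at 22.2 and 24.7 TPM. The AXL to EGFR ratio of TPM was 0.841 and 0.843 in those libraries, and between 1.27 and 3.21 in each library of the other 5 groups. PDGFRB ranked next below MET in 5 groups, but in siHMGN5 it lay below ERBB2, at 0.788 and 0.667 TPM against 1.49 and 2.1 TPM.

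**Figure D1:**
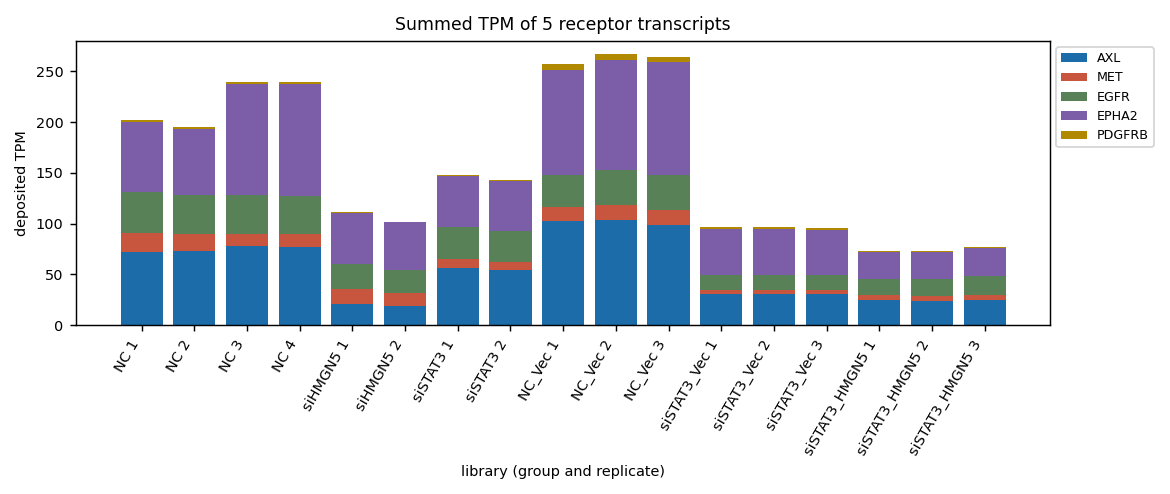
Stacked deposited TPM (vertical axis) of the transcripts of AXL, MET, EGFR, EPHA2 and PDGFRB in each of the 17 libraries (horizontal axis, group and replicate). The 5 receptors sum to 257 to 267 TPM in NC_Vec, 95.6 to 96.9 TPM in siSTAT3_Vec and 73 to 76.6 TPM in siSTAT3_HMGN5, and to 196 to 240 TPM in NC, 143 to 148 TPM in siSTAT3 and 102 to 111 TPM in siHMGN5. These TPM are not TMM scaled, and differences between groups were tested on estimated counts. AXL averages 55.3 TPM in siSTAT3 and 74.9 TPM in NC, against 528 and 614 CPM. EGFR averages 31.3 TPM in siSTAT3 and 38.8 TPM in NC, against 631 and 674 CPM.

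The promoters of the receptors are shown because 5 of the transcripts fell after STAT3 siRNA in vector cells, and because STAT3 binds DNA. In cells without a vector PDGFRB alone was called lower with all NC libraries, as given below. RefSeq (GRCh38.p14) lists 10 start sites for the 8 genes, 2 each for AXL and EGFR, and each window holds 250 bases before and 50 after a start. The windows were searched on both strands for 4 motifs: TTCNNNGAA (the core of STAT sites), the same with a spacer longer by 1 base, TGANTCA (AP-1) and GGAATG (TEAD). No window held either STAT form, which 7.66% and 6.44% of all 35116 windows hold. TGANTCA, held by 7.71% of all windows, occurred at the second start of EGFR (TGAGTCA and TGACTCA) and in ERBB2 (TGATTCA). The search left the middle base open, so a match to these letters need not be an AP-1 site. GGAATG, held by 14% of all windows, occurred at the second starts of AXL and EGFR and in EPHA2. A match is a description of letters, and a missing one says only that these letters are not in the window. The files do not say which start the counted transcripts use. The second starts of AXL and EGFR lie within the genes. The first EGFR window (chr7:55018767-55019066), which covers the 5′ end of the gene, holds none of the 4 motifs. That window and the second AXL window are not printed. Below, 5′ to 3′ on the strand of the gene, capitals mark matches to any of the 4 motifs, of which the AXL and MET windows shown hold none: the first start of AXL (chr19:41218973-41219272, plus strand), MET (chr7:116671946-116672245, plus), EPHA2 (chr1:16156020-16156319, minus) and the second start of EGFR (chr7:55109589-55109888, plus).
AXL: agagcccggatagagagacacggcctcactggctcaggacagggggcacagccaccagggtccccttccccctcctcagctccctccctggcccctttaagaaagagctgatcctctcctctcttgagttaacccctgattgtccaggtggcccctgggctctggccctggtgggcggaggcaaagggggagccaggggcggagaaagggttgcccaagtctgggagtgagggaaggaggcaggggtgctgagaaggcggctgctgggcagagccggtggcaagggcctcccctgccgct
MET: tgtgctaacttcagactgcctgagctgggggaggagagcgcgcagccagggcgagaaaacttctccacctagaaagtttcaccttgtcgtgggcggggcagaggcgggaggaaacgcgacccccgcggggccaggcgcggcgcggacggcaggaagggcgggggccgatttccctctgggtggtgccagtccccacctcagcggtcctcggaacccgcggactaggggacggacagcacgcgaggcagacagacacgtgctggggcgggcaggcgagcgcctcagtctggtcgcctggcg
EPHA2: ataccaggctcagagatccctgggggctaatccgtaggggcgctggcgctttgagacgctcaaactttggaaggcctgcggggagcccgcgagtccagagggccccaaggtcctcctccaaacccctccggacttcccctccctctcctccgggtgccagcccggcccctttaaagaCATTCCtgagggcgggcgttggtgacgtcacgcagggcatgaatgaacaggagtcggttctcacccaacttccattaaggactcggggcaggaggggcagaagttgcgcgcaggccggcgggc
EGFR: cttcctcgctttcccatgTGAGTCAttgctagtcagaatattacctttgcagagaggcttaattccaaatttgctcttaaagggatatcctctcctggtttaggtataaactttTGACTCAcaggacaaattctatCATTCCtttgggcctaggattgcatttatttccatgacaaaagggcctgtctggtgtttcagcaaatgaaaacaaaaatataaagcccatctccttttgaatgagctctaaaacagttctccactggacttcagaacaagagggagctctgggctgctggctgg

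In cells with the control vector, STAT3 siRNA lowered all 5 abundant receptors. AXL (ENST00000301178, gene at chr19:41219223-41261766, GRCh38.p14, RefSeq) was at 961, 867 and 846 CPM in the NC_Vec libraries and at 265, 270 and 275 CPM in the siSTAT3_Vec libraries. Every siSTAT3_Vec library lay below every NC_Vec library, and AXL kept 30.3% of its control level, a 3.3-fold fall (log2 fold change -1.72 ± 0.06 SE, adjusted p = 9.04e-06, edgeR quasi-likelihood test with Benjamini-Hochberg adjustment over 69768 transcripts). In bulk RNA a lower level in each cell and fewer cells with the transcript cannot be told apart.

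MET (ENST00000397752, gene at chr7:116672196-116798377) was at 182, 177 and 174 CPM in NC_Vec and at 54.5, 57 and 55.9 CPM in siSTAT3_Vec. The groups did not overlap, and MET fell 3.18-fold (log2 fold change -1.67 ± 0.04 SE, adjusted p = 4.29e-06). EGFR (ENST00000275493, gene at chr7:55019017-55211628) fell 2.32-fold, from 636, 617 and 633 CPM to 275, 267 and 272 CPM (log2 fold change -1.21 ± 0.04 SE, adjusted p = 8.9e-06). These libraries too lay apart, with less than 20 CPM between the highest and the lowest of each group. EPHA2 (ENST00000358432, gene at chr1:16124337-16156069) fell 2.35-fold, from 812, 751 and 796 CPM to 330, 340 and 335 CPM (log2 fold change -1.23 ± 0.04 SE, adjusted p = 6.97e-06). PDGFRB (ENST00000261799, gene at chr5:150113839-150155845), the least abundant of the 5, fell 2.34-fold, from 64.5, 58.1 and 57.3 CPM to 27.6, 24.5 and 24.9 CPM (log2 fold change -1.23 ± 0.07 SE, adjusted p = 6.05e-05). EGFR, EPHA2 and PDGFRB thus kept 43.1%, 42.6% and 42.8% of their control levels, and MET kept 31.4%.

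Of the 9 listed transcripts 7 passed the filter on low counts, and 5 of the 7 were lower, where 7.07% of all 69768 transcripts tested were called lower and 7.2% higher. Of the 15664 better-covered ones (10 CPM or more on average) 18.4% were called lower and 20.1% higher. The median log2 fold change of the 5 was -1.23, against 0.02 over all transcripts tested and 0.05 over those of at least 10 CPM. Within these 15664, 1.9% had a more negative fold change than AXL, 2.09% than MET and 4.48% to 4.62% than EPHA2, PDGFRB and EGFR. The 5 calls held under each of 6 other settings and without each of the 9 libraries.

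**Figure D2:**
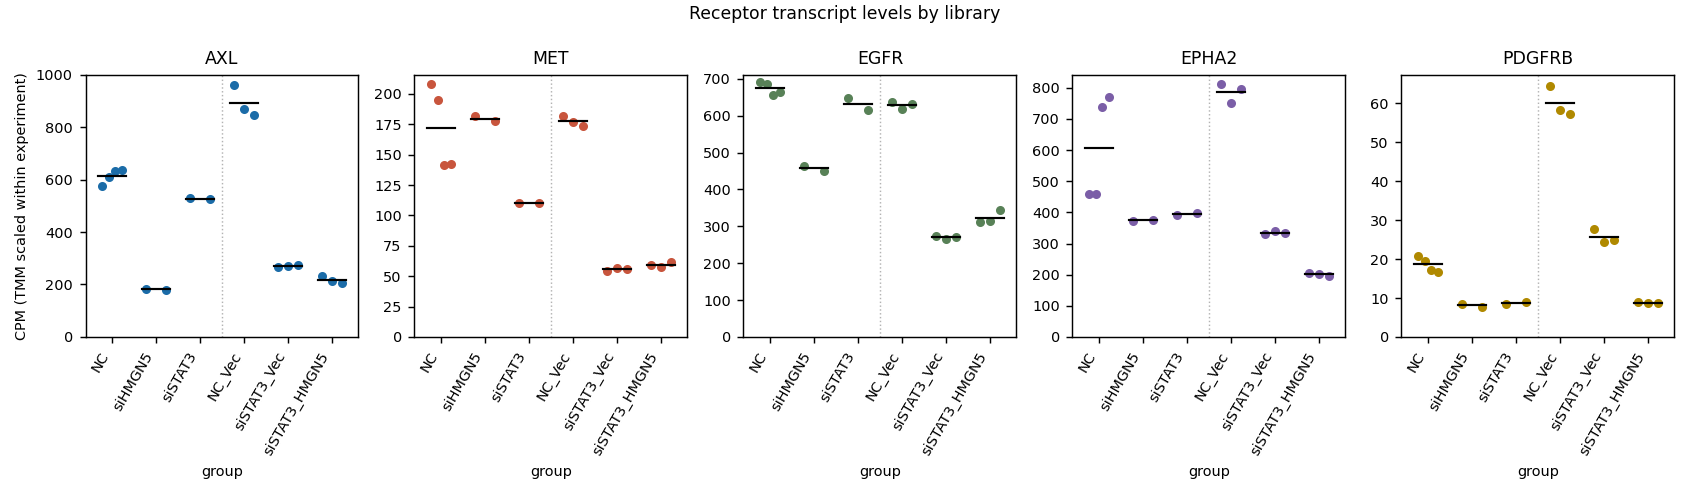
CPM (vertical axes, TMM scaled within each experiment, from 0) of the 5 abundant receptor transcripts in each library (points) of the 6 groups (horizontal axes), with the group mean as a line; the dotted line divides the siRNA experiment from the lentiviral one. Points of siSTAT3_Vec lie below those of NC_Vec for each receptor, and the EPHA2 and MET points of NC split into 2 pairs.

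Ectopic HMGN5 in STAT3-depleted cells moved the receptors in different directions. PDGFRB and EPHA2 were lower again, AXL was slightly lower, EGFR was slightly higher and MET did not pass the test. PDGFRB was at 9.07, 8.68 and 8.75 CPM in siSTAT3_HMGN5, below each siSTAT3_Vec library (24.5 to 27.6 CPM). That is a further 2.9-fold fall (log2 fold change -1.54 ± 0.07 SE, adjusted p = 0.000338), and 0.715% of the transcripts of at least 10 CPM had a more negative one. EPHA2 was at 207, 201 and 195 CPM against 330 to 340 CPM, a further 1.67-fold fall (log2 fold change -0.74 ± 0.04 SE, adjusted p = 0.000413). Both calls held under each of 6 other settings and without each of the 9 libraries.

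AXL was at 232, 212 and 207 CPM in siSTAT3_HMGN5, below the 265 to 275 CPM of siSTAT3_Vec, which is 1.25-fold lower (log2 fold change -0.32 ± 0.06 SE, adjusted p = 0.0323). EGFR was at 311, 315 and 344 CPM, above the 267 to 275 CPM of siSTAT3_Vec, which is 1.19-fold higher (log2 fold change 0.25 ± 0.04 SE, adjusted p = 0.0204). Neither pair of groups overlapped, but both calls lay near the threshold. The AXL call held in 3 of 6 other settings and without 3 of the 9 libraries (adjusted p up to 0.117), and the EGFR call in 4 of 6 and without 5 of the 9 (adjusted p up to 0.0913). MET was at 59.1, 57.9 and 61.7 CPM against 54.5 to 57 CPM, and its log2 fold change was 0.09 ± 0.04 SE (adjusted p = 0.325). Of the 7 tested transcripts 3 were lower and 1 higher, where 2.25% and 1.52% of all transcripts tested, and 6.83% and 5.62% of those of at least 10 CPM, were called lower and higher. The median of the 5 abundant receptors was -0.32, against -0.01 over all transcripts tested.

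Set against NC_Vec, no receptor was back at the control level with HMGN5. All 5 were lower in siSTAT3_HMGN5 than in NC_Vec (11.4% of all transcripts tested were called lower and 10.9% higher, and 24.4% and 26.9% of those of at least 10 CPM), with 14.7% of the control CPM left for PDGFRB, 24.3% for AXL, 25.5% for EPHA2, 33.6% for MET and 51.4% for EGFR. The log2 fold changes were -2.76 ± 0.08, -2.04 ± 0.06, -1.97 ± 0.04, -1.57 ± 0.04 and -0.96 ± 0.04 (SE) in the same order, with adjusted p of at most 9.36e-06. This comparison shares libraries with both of the preceding ones, and the 3 are not independent.

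**Figure D3:**
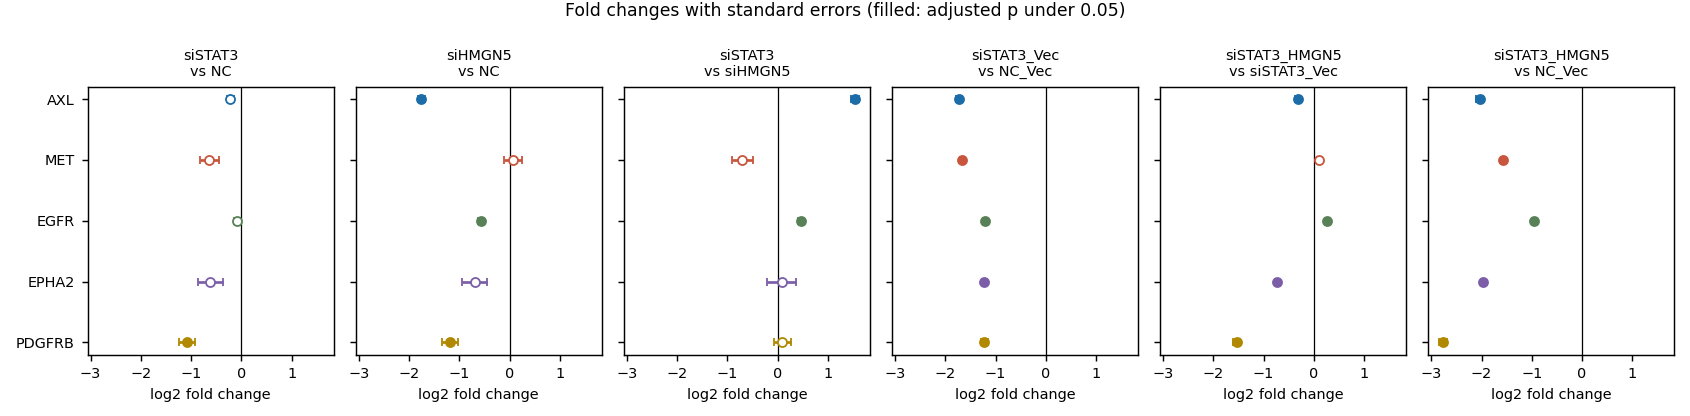
Log2 fold changes (horizontal axes) with standard errors (bars) of the 5 abundant receptor transcripts (vertical axis) in 6 comparisons; filled points have an adjusted p under 0.05 and open points do not. All 5 points are filled and left of 0 for siSTAT3_Vec and for siSTAT3_HMGN5 against NC_Vec, while for siSTAT3 against NC only PDGFRB is filled.

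HMGN5 siRNA alone lowered AXL, PDGFRB and EGFR. AXL was at 574, 611, 633 and 638 CPM in the NC libraries and at 185 and 179 CPM in siHMGN5. It fell 3.38-fold (log2 fold change -1.76 ± 0.07 SE, adjusted p = 0.0015 over 74346 transcripts), and 2.18% of the 15813 transcripts of at least 10 CPM had a more negative fold change. Against NC replicates 1 and 2 only and replicates 3 and 4 only the log2 fold change was -1.70 and -1.81, and the call held under each of 8 other settings and without each of the 8 libraries. PDGFRB was at 20.9, 19.6, 17.3 and 16.6 CPM in NC and at 8.55 and 7.82 CPM in siHMGN5, a 2.27-fold fall (log2 fold change -1.18 ± 0.16 SE, adjusted p = 0.0147). EGFR was at 690, 685, 655 and 664 CPM in NC and at 464 and 450 CPM in siHMGN5, a 1.47-fold fall (log2 fold change -0.56 ± 0.06 SE, adjusted p = 0.00771). Both siHMGN5 libraries lay below all 4 NC libraries for these 3 receptors. Against NC replicates 1 and 2 and against replicates 3 and 4, the log2 fold change was -1.30 and -1.05 for PDGFRB (adjusted p = 0.0183 and 0.02) and -0.59 and -0.53 for EGFR (adjusted p = 0.0103 and 0.009). Without either siHMGN5 library the calls of PDGFRB (adjusted p = 0.0981 and 0.12) and EGFR (adjusted p = 0.0686 and 0.0807) ended, the lone library being assumed to vary like the other groups.

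EPHA2 and MET did not pass against all 4 NC libraries, and here the NC pairs decide the value. EPHA2 was at 458, 459, 740 and 770 CPM in NC and at 373 and 376 CPM in siHMGN5, below each NC library (log2 fold change -0.70 ± 0.25 SE, adjusted p = 0.238). Against replicates 1 and 2 only it was lower by -0.29 ± 0.03 on the log2 scale (adjusted p = 0.0221) and against replicates 3 and 4 only by -1.01 ± 0.04 (adjusted p = 0.00351). MET was at 208, 195, 142 and 142 CPM in NC and at 181 and 178 CPM in siHMGN5, between the NC pairs. Its log2 fold change was 0.06 ± 0.18 SE with all NC libraries (adjusted p = 0.934), -0.16 against replicates 1 and 2 (adjusted p = 0.165) and 0.34 against replicates 3 and 4 (adjusted p = 0.0177), so its direction rests on the control pair. In all, 3 of the 7 tested transcripts were lower and none was higher with all NC libraries (2.45% and 0.943% of all transcripts tested were called lower and higher; 8.76% and 2.97% of those of at least 10 CPM). The median of the 5 abundant receptors was -0.70, against -0.13 over transcripts of at least 10 CPM.

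After STAT3 siRNA without a vector, AXL and EGFR lay slightly lower and did not pass the test with all NC libraries. AXL was at 529.3 and 526.1 CPM in siSTAT3, 85.9% of the NC mean and below each NC library (log2 fold change -0.22 ± 0.07 SE, adjusted p = 0.152). Against NC replicates 1 and 2 only it did not pass (log2 fold change -0.17, adjusted p = 0.128), and against replicates 3 and 4 only it did (log2 fold change -0.29, adjusted p = 0.0197). EGFR was at 648 and 614 CPM, just below the lowest NC library at 655 CPM, and its log2 fold change was -0.09 ± 0.06 SE (adjusted p = 0.491). EGFR passed against neither pair (-0.12 and -0.08, adjusted p = 0.194 and 0.358). PDGFRB was the single receptor called lower with all NC libraries, at 8.51 and 8.98 CPM, a 2.13-fold fall (log2 fold change -1.09 ± 0.16 SE, adjusted p = 0.0157). It passed against NC replicates 1 and 2 (-1.21, adjusted p = 0.0171) and against replicates 3 and 4 (-0.97, adjusted p = 0.0236). Its call ended without either siSTAT3 library (adjusted p = 0.128 and 0.11). In this comparison 2.92% of all 74346 transcripts tested were called lower and 1.36% higher, and 9.87% and 4.25% of those of at least 10 CPM. The median of the 5 abundant receptors was -0.62, against -0.08 over transcripts of at least 10 CPM.

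MET and EPHA2 were again read against split controls. MET was at 110 CPM in both siSTAT3 libraries, below each NC library (142 to 208 CPM), and its log2 fold change was -0.64 ± 0.18 SE (adjusted p = 0.133). It passed against either pair alone, at -0.87 ± 0.05 against replicates 1 and 2 (adjusted p = 0.00544) and -0.38 ± 0.04 against replicates 3 and 4 (adjusted p = 0.0137). EPHA2 was at 392 and 399 CPM, also below each NC library. Its log2 fold change was -0.62 ± 0.25 SE (adjusted p = 0.28), and it likewise passed against either pair, at -0.21 ± 0.03 (adjusted p = 0.0334) and -0.95 ± 0.04 (adjusted p = 0.00367). The fits with 1 pair leave out the spread between the pairs, and with all NC libraries neither MET nor EPHA2 passed. The siSTAT3 and siHMGN5 comparisons use the same NC libraries, so their values are given side by side and are not independent. Transcripts shorter than 300 bases took 1.56% to 1.7% of the reads in these 4 libraries and 1.15% to 1.26% in NC, and the part of this in the results was not tested.

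Set directly against each other, the 2 knockdowns differed in AXL and EGFR. AXL was 2.9-fold higher in siSTAT3 than in siHMGN5 (529.3 and 526.1 CPM against 185 and 179 CPM, log2 fold change 1.54 ± 0.08 SE, adjusted p = 0.0012), and EGFR was 1.38-fold higher (648 and 614 CPM against 464 and 450 CPM, log2 fold change 0.47 ± 0.07 SE, adjusted p = 0.0174). For the same comparison 2.02% of all transcripts tested were called higher and 1.87% lower (6.86% and 5.92% of those of at least 10 CPM). The AXL difference held without each of the 8 libraries, whereas the EGFR call ended without any 1 of the 4 knockdown libraries (adjusted p 0.0856 to 0.134). MET lay the other way, at 110 CPM in both siSTAT3 libraries against 181 and 178 CPM in siHMGN5 (log2 fold change -0.70 ± 0.21 SE, adjusted p = 0.149), and passed when only these 2 groups were fitted (log2 fold change -0.71, adjusted p = 0.0231). PDGFRB and EPHA2 had log2 differences of 0.10 ± 0.17 and 0.08 ± 0.28 SE (adjusted p = 0.894 and 0.966) in the joint fit. That fit shares its spread with the split NC libraries and leaves room for a difference in either direction. With only these 2 groups fitted the values were 0.09 ± 0.16 and 0.076 ± 0.036 SE (adjusted p = 0.815 and 0.324). EPHA2 was at 392 and 399 CPM in siSTAT3 and at 373 and 376 CPM in siHMGN5.

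The effect of STAT3 siRNA on AXL, EGFR and MET differed between the experiments, which share no library. In 1 fit of all 17 libraries the log2 effect was less negative in the siRNA experiment by 1.48 ± 0.09 for AXL (adjusted p = 1.06e-06), by 1.10 ± 0.06 for EGFR (adjusted p = 7.58e-07) and by 1.01 ± 0.17 for MET (SE, adjusted p = 0.00361). Of all 86839 transcripts tested, 2.23% were called in this direction and 3.28% in the other (7.82% and 12.4% of those of at least 10 CPM). The 3 differences held against either NC pair. For PDGFRB the difference was 0.12 ± 0.14 SE (adjusted p = 0.803), with falls of 2.13-fold and 2.34-fold in the 2 experiments. For EPHA2 it was 0.59 ± 0.25 SE with all NC libraries (adjusted p = 0.232), 1.004 ± 0.052 against NC replicates 1 and 2 (adjusted p = 1.46e-06) and 0.27 ± 0.05 against replicates 3 and 4 (adjusted p = 0.00715). Infection and experiment change together and cannot be told apart, and the depth of knockdown was not compared.

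**Figure D4:**
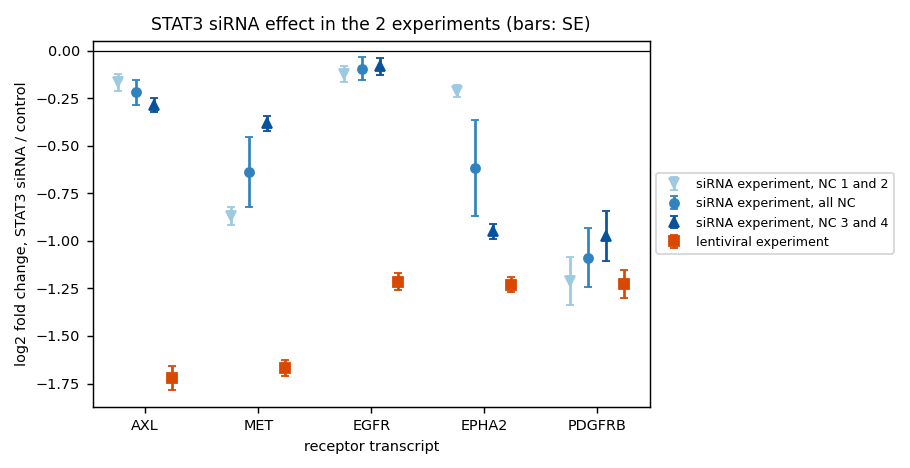
Log2 fold change of STAT3 siRNA over control (vertical axis) with standard errors (bars) for the 5 abundant receptor transcripts (horizontal axis), in the siRNA experiment against all NC libraries, NC replicates 1 and 2 or NC replicates 3 and 4 (blue), and in the lentiviral experiment (orange). AXL lies at -0.22 in the siRNA experiment and -1.72 in the lentiviral one, while the PDGFRB values lie at -1.09 and -1.23.

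The remaining 4 transcripts were scarce and their estimates uneven. ERBB2 (ENST00000269571, gene at chr17:39688094-39728658) was listed at 0 reads in 11 of the 17 libraries, including all of siSTAT3 and NC_Vec. It had 252 and 377 reads in the siHMGN5 libraries and 99 reads in NC replicate 2 with 0 in the other NC libraries (adjusted p = 0.512). Set against siSTAT3, siHMGN5 did not pass either in the joint fit (adjusted p = 0.32), although these groups did not overlap. In siSTAT3_Vec it was at 0, 163 and 297 reads and in siSTAT3_HMGN5 at 296, 0 and 0 reads, so libraries of 1 group differed by more than the groups did. IGF1R (ENST00000268035, gene at chr15:98648539-98964530) was listed at 217 reads in NC replicate 1 and at 0 in the other 16 libraries. A value of 0 for 1 listed transcript does not show that the gene was silent, since reads can be assigned to its other transcripts.

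INSR (ENST00000302850, gene at chr19:7112265-7294414) had 0 to 127 reads per library. It was at 2.34, 2.92, 4.43 and 6.03 CPM in NC, 1.11 and 1.13 CPM in siHMGN5 and 0.585 and 3.64 CPM in siSTAT3. In the lentiviral experiment it was at 1.19, 0.919 and 3.99 CPM in NC_Vec, 5.6, 3.88 and 2.15 CPM in siSTAT3_Vec and 0, 4.08 and 3.06 CPM in siSTAT3_HMGN5, and these groups overlapped. The siHMGN5 libraries lay below all NC libraries, but INSR passed no test here (adjusted p = 0.328 for siHMGN5 against NC, and 0.635 to 0.938 in the other comparisons of 2 groups). The second MET transcript, ENST00000318493, was at 0 reads in 14 libraries and at 6.04 to 13.2 reads in 3, which is 0.167% to 0.927% of the reads of both MET transcripts. In the 14, 3 reads would be 0.0732% to 0.243% of the MET reads. Both transcripts share most of their sequence, and reads from the shared part cannot tell them apart. The split is therefore a model estimate, and a 0 sets no firm upper limit on the share. Summed over both, MET fell 3.18-fold in siSTAT3_Vec (adjusted p = 4.83e-06) and had a log2 fold change of 0.10 with HMGN5 (adjusted p = 0.299).

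**Figure D5:**
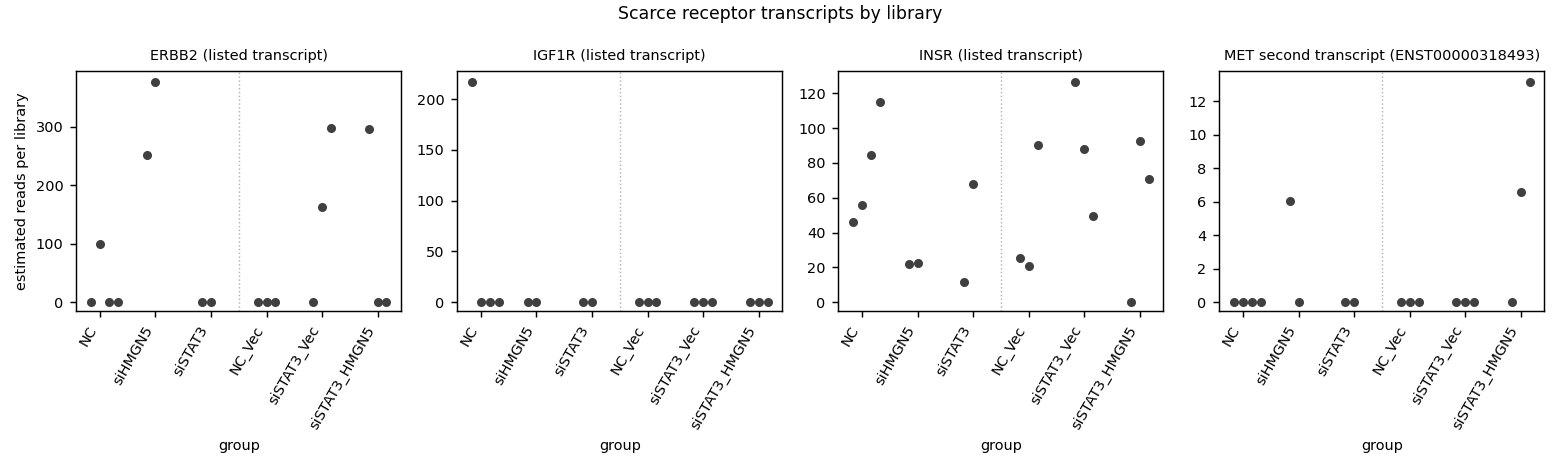
Estimated reads per library (vertical axes, points) of the listed ERBB2, IGF1R and INSR transcripts and of the second MET transcript in the 6 groups (horizontal axes); the dotted line divides the experiments. Most ERBB2, IGF1R and second MET values are 0, and IGF1R has 217 reads in 1 NC library.

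Over the 6 groups the receptors did not share 1 pattern. With the group means of log2(CPM + 1) centred within each experiment, the closest pair among the 5 abundant receptors was EPHA2 and PDGFRB, at a mean absolute difference of 0.25 per group, and the farthest was AXL and MET at 0.55. AXL had its lowest centred value in siHMGN5 (-1.09) and MET in siSTAT3_Vec (-0.58), EPHA2 and PDGFRB in siSTAT3_HMGN5 (-0.90 and -1.36). Each experiment was centred on its own group means, so these values do not rank falls across the experiments. Against its own control AXL fell further in siSTAT3_HMGN5 (log2 fold change -2.04) than in siHMGN5 (-1.76). Among 13140 other transcripts of at least 10 CPM whose group means spanned at least 0.5, the nearest to AXL was ENST00000405140, at a difference of 0.08, and the nearest to the MET sum was ENST00000277575, at 0.07. They are named by ID only, and the likeness is a description over 6 group means.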

How the data were processed

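RNA-seq of 17 libraries was used. The 2 H3K27ac CUT&Tag samples were not analysed here. The deposited tables hold, per the file headers, a length and effective length in bases, TPM and estimated counts of reads for 175775 transcripts in each library; the submitters' processing notes name Salmon 1.4.0 and GRCh38. The transcript release and strand setting are not given in the sources used here. Reads shared between transcripts are divided by a model, so transcripts of 1 gene can trade reads. TPM as deposited by the authors is scaled per effective length and was used only for levels. Estimated counts were rounded. Each experiment was fitted apart with edgeR 4.0.16 in R 4.3.3 (filterByExpr, TMM, glmQLFit and glmQLFTest, a mean per group). The p-values were adjusted by Benjamini-Hochberg over the whole table, with a threshold of 0.05. The difference between experiments used 1 fit of all 17. Standard errors are the fold change over the root of the test statistic. Alternatives used RLE size factors, no filter, limma-voom (limma 3.58.1), DESeq2 1.42.0, only the compared groups, a replicate block, subsets of NC and left-out libraries. With 1 library left in a group, that library is assumed to vary like the other groups. Likeness was the mean absolute difference of centred log2(CPM + 1) group means. Planned lists of pathway genes and cell markers could not be matched to transcript IDs and were not used here. The fitting code was tested on simulated data. The 9 members and the motif list were chosen with earlier results of these data known, and all 9 are named.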

Additional observations from a re-analysis of the deposited data

Results flagged for a closer look

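ERBB2 and IGF1R each had 1 NC library far from the others. ERBB2 was at 5.16 CPM in NC replicate 2 and at 0 in the other 3, and IGF1R was at 11 CPM in NC replicate 1 and at 0 in the other 3. With 3 values of 0 the gap is the whole range by construction, so no chance rate is given for these values.

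The STAT3 siRNA effect differed between the siRNA and the lentiviral experiment for 3 receptors, tested as an interaction. The difference of log2 fold changes was 1.48 ± 0.09 for AXL, 1.10 ± 0.06 for EGFR and 1.01 ± 0.17 for MET (SE, edgeR, adjusted p = 1.06e-06, 7.58e-07 and 0.00361).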

How the results depend on the processing

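ERBB2, IGF1R, INSR and the second MET transcript had at most 377 reads in a library and differed widely between libraries of 1 group, for which the cause was not tested. Against NC replicates 1 and 2 only, 3 members passed for siSTAT3 against NC, and against replicates 3 and 4 only 4 did (1 with all NC libraries); for siHMGN5, 6 passed against replicates 3 and 4 (3 with all), ERBB2 among them. With DESeq2, 3 members passed for siSTAT3 against NC, namely PDGFRB, MET and AXL (AXL log2 fold change -0.22, adjusted p = 0.00211). Fitting only the compared groups gave 4 members for siSTAT3 against siHMGN5 (2 in the joint fit), with MET and ERBB2 added. DESeq2 gave 6 members for siSTAT3_Vec and for siSTAT3_HMGN5 against NC_Vec (5 in the main fit), with ERBB2 added. Leaving out 1 library gave 0 to 1, 1 to 4, 1 to 3 and 2 to 4 members for siSTAT3 against NC, siHMGN5 against NC, siSTAT3 against siHMGN5 and siSTAT3_HMGN5 against siSTAT3_Vec. The cause of these shifts was not tested.

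Deviations from group means correlated at -0.0887 to 0.0520 between same-numbered libraries in the lentiviral and -0.0035 to 0.0420 in the siRNA experiment. Between libraries of different number they correlated at -0.0591 to 0.0758 and -0.042 to 0.0327. In a group of 2 libraries the deviations mirror each other. In the siRNA experiment this check therefore cannot settle whether the numbers pair libraries. In the lentiviral experiment, with 3 libraries per group, same-numbered libraries reached no higher correlation (0.0520) than the others (0.0758). Pairing was not tested further. With the replicate block, calls over all transcripts were 1622 for siSTAT3 against NC, 902 for siHMGN5 against NC and 1156 for siSTAT3_HMGN5 against siSTAT3_Vec (3181, 2521 and 2631 without), and 2 members passed in the last (4 without), where the AXL and EGFR calls ended (adjusted p = 0.0631 and 0.057). NC replicates 3 and 4 share their numbers with no other library of the siRNA experiment. With the block, comparisons with NC therefore rest on NC replicates 1 and 2. The block also ended the PDGFRB calls for siSTAT3 against NC (log2 fold change -1.21, adjusted p = 0.0566) and siHMGN5 against NC (-1.31, adjusted p = 0.0621). With it MET passed for siSTAT3 against NC (-0.87, adjusted p = 0.023) and against siHMGN5 (-0.70, adjusted p = 0.0229), and EPHA2 passed for siHMGN5 against NC (-0.29, adjusted p = 0.0467) and for the difference between experiments (1.005, adjusted p = 8.51e-05). MET in siHMGN5 was reversed with the block (log2 fold change -0.17, MET sum -0.16), against NC replicates 1 and 2 only (-0.16, MET sum -0.16) and without NC replicate 3 or 4 (lowest -0.023 and MET sum -0.022, highest 0.17 for both over the left-out libraries). INSR was reversed in siSTAT3_HMGN5 against NC_Vec with limma-voom (-1.29) and over left-out libraries (-0.41 to 1.16), and in siSTAT3 against siHMGN5 over left-out libraries (-0.93 to 1.70).

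Calls over all transcripts with DESeq2 were 10602 for siSTAT3 against NC, 9891 for siHMGN5 against NC, 10177 for siSTAT3 against siHMGN5, 16966 for siSTAT3_Vec against NC_Vec, 8078 for siSTAT3_HMGN5 against siSTAT3_Vec and 10995 for the difference between experiments (main counts 3181, 2521, 2893, 9953, 2631 and 4784). NC replicates 3 and 4 alone gave 6258, 6249 and 9318 for siSTAT3, siHMGN5 and that difference. Without a filter siHMGN5 against NC had 1638 and siSTAT3_HMGN5 against siSTAT3_Vec 1627, and fitting only the compared groups gave 1448 for siHMGN5. Leaving out 1 library gave 775 to 2349, 551 to 1838, 844 to 2533, 1190 to 2472 and 3061 to 5393 for siSTAT3 against NC, siHMGN5 against NC, siSTAT3 against siHMGN5, siSTAT3_HMGN5 against siSTAT3_Vec and the difference between experiments. Scaling by library totals moved 8 of 36 mean levels by more than 1 SD.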
